A study of Homo sapiens with 20 samples.

Results

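In A375 and 1205Lu human melanoma cells, 2285 of 54563 consensus FRA1 Cut&Run peaks (4.19%) were under 2000 bp wide and enriched over IgG in both cell lines. They were selected on the measured counts: each of the 3 FRA1 samples of each line had to hold at least 10 raw reads in the peak and at least 4 times the IgG count of its line plus 1. These shared narrow peaks made up 93.2% of the 2453 peaks enriched in both lines, the other 168 being 2000 bp or wider. By the same limits, 27898 peaks under 2000 bp were enriched in A375 only, 1410 in 1205Lu only and 21771 in neither. These classes rest on raw counts, and the 1205Lu FRA1 samples had fewer reads in peaks than those of A375. The part of that difference in the class sizes was not tested. Cut&Run was performed on cells of each line, for which the labels name no treatment, with 3 FRA1 samples and 1 IgG sample per line. RNA-seq was performed on the same lines given non-targeting siRNAs (si-NT) or siRNAs against FRA1 (si-FRA1, named si-FOSL1 in the sample titles), with 3 samples per group. Each line stands for 1 established culture, and nothing in the labels says that samples of a group came from separate cultures. P-values therefore measure only the spread between these samples, which may be technical.

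FRA1, the product of FOSL1, is a basic leucine zipper protein that binds DNA as a dimer, mostly with a JUN protein, in the AP-1 complex. AP-1 dimers recognise the palindromic element TGACTCA, called the TRE, and some of them the longer TGACGTCA, called the CRE. FRA1 lacks the transactivation domain of FOS, accumulates when ERK signaling is active, and is known for binding at enhancers as well as at promoters. In Cut&Run, a nuclease tethered to an antibody releases the DNA around the bound protein, and the reads of that DNA are counted in peaks.

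Reads in peaks, which do not measure the sequencing depth of a library, differed between the lines. Reads in all consensus peaks ranged from 3354095 to 5316527 in the A375 FRA1 samples and from 583750 to 897407 in the 1205Lu FRA1 samples, with 383994 and 314569 in the A375 and 1205Lu IgG samples. In 1205Lu, FRA1 replicate 1 stood apart from replicates 2 and 3 (chi-square per degree of freedom 2.175 and 1.827), which differed from each other by little more than counting noise (1.069, p = 6.8e-11 over 18088 peaks). Without 1205Lu replicate 1 the rule found 3871 peaks, and without any 1 other FRA1 sample 2290 to 2446. With the counts of all samples, IgG included, scaled to the same total in peaks, the rule found 107. That scaling also removes the overall excess of FRA1 over IgG reads in peaks, on which the rule rests. RNA-seq totals ranged from 20573412 to 32518903 counts. Both lines expressed the melanocytic factor SOX10 (32.0 to 44.2 CPM, counts scaled to library size, in A375 and 776 to 930 CPM in 1205Lu) and the mesenchymal gene VIM. The melanocyte and melanoma marker S100B stood at 0.827 to 1.88 CPM in A375 and 406 to 434 CPM in 1205Lu. Of the markers listed with VIM, NGFR stood at 5.23 to 9.03 CPM in A375 and 2.67 to 14.6 CPM in 1205Lu. EGFR stood at 137 to 221 CPM and 67.8 to 81.5 CPM, and AXL at 188 to 720 CPM and 260 to 507 CPM. The pigment genes PMEL, MLANA, TYR and DCT were at or below 1.38 CPM in every sample, and MITF, which drives them, stood at 49.9 to 67.1 CPM in A375 and 2.77 to 4.06 CPM in 1205Lu. Keratinocyte and blood markers were at or below 0.755 CPM. Of the fibroblast markers, COL1A1 stood at 10.7 to 22.6 CPM in A375 and 1.16 to 2.48 CPM in 1205Lu, LUM at 0.452 to 1.92 CPM and 0.0444 to 0.370 CPM, and DCN at 0.181 to 0.826 CPM and 0.232 to 1.478 CPM.

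The shared narrow peaks with the strongest enrichment are given as examples from the top of the ranking, not as typical peaks. Ranked by the smallest of the 6 ratios of the FRA1 count to the IgG count plus 1, the first 8 lay in intergenic DNA of chromosome 13, over a start of the histamine receptor gene HRH1, in an intron 35420 bp from MEDAG, in introns near SPECC1 and the collagen gene COL27A1, near a start of ITGBL1, over a start of MYPN and in an intron near ZFPM2. Windows of 121 bases of the forward strand of GRCh38 are printed for 7 of them, placed on the TRE nearest to the peak centre or, near MEDAG, where the peak has none, on the centre. From the peak centre, that TRE lay at 420 bp in the intergenic peak, 66 bp at HRH1 and 282 bp near SPECC1. It lay at -173 bp near COL27A1, 77 bp near ITGBL1 and -194 bp at MYPN. Capitals mark each TRE, which reads TGACTCA or TGAGTCA.
Intergenic peak, chr13:44313894-44314014: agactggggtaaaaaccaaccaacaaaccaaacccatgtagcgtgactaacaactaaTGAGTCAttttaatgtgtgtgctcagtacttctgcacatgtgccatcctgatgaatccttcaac
HRH1 start, chr3:11137110-11137230: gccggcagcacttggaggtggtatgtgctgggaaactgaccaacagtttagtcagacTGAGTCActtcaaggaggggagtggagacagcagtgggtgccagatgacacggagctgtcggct
Near MEDAG, chr13:30870209-30870329: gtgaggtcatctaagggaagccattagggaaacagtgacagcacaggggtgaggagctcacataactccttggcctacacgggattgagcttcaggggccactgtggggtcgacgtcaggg
Near SPECC1, chr17:20064274-20064394: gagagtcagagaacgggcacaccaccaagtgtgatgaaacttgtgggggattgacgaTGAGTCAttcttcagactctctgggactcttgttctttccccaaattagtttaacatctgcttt
Near COL27A1, chr9:114224009-114224129: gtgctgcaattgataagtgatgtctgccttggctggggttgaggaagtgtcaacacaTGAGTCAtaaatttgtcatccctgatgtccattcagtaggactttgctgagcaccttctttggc
Near ITGBL1, chr13:101450409-101450529: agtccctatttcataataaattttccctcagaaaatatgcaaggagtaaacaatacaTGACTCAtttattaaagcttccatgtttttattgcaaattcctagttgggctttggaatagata
MYPN start, chr10:68136257-68136377: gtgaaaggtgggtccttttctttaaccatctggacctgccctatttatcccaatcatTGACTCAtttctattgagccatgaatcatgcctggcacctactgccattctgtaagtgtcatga

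The intergenic peak (chr13:44312563-44314506) held 1301, 2077 and 1692 reads against 27 in IgG in A375 and 285, 601 and 491 against 5 in 1205Lu. The peak over the HRH1 start (chr3:11136319-11137890) held 1521, 2081 and 1741 reads against 33 in IgG in A375 and 322, 541 and 478 against 7 in 1205Lu. Both had several times more raw reads in the A375 samples, which also had more reads in all consensus peaks. The peak near MEDAG (chr13:30869687-30870851), without a TRE, held 216, 319 and 262 reads against 4 in IgG in A375 and 221, 439 and 321 against 5 in 1205Lu, so that its raw counts in the 2 lines overlapped. The peak near ITGBL1 (chr13:101449822-101450963), with 4 TREs, held 845, 1262 and 1058 reads against 26 in IgG in A375 and 115, 230 and 197 against 3 in 1205Lu. The peak near ZFPM2 (chr8:105517811-105518821), with 1 TRE, held 421, 623 and 506 reads against 13 in IgG in A375 and 137, 343 and 280 against 4 in 1205Lu. In each of these peaks the FRA1 samples of a line lay far above its IgG sample, as the rule requires.

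Most shared narrow peaks were weaker. Median counts per peak were 133, 206 and 165 in the A375 FRA1 samples against 9 in IgG, and 44, 85 and 71 in the 1205Lu FRA1 samples against 6. These peaks took 13.04% to 13.5% of the reads in consensus peaks in the A375 FRA1 samples and 21.7% to 27.4% in the 1205Lu FRA1 samples, with 6.35% and 4.70% in the A375 and 1205Lu IgG samples. Since the rule used these counts, they are a description of the selection. In 1824 of the 2285 peaks (79.8%) the sample nearest to the limit was 1205Lu replicate 1. The smallest ratio ranged from 4 to 46.5 with a median of 5.88. Between 4 and 4.5 lay 424 peaks, and 476 peaks that met the other limits lay between 3.5 and 4. A smallest count of exactly 10 was found in 22 peaks, and 29 missed with a count of 9. The widest peak inside spanned 1999 bp (chr11:72111485-72113483, smallest ratio 7.32), and the narrowest left out for its width 2000 bp (chr1:204057176-204059175, smallest ratio 7.79).

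**Figure D1:**
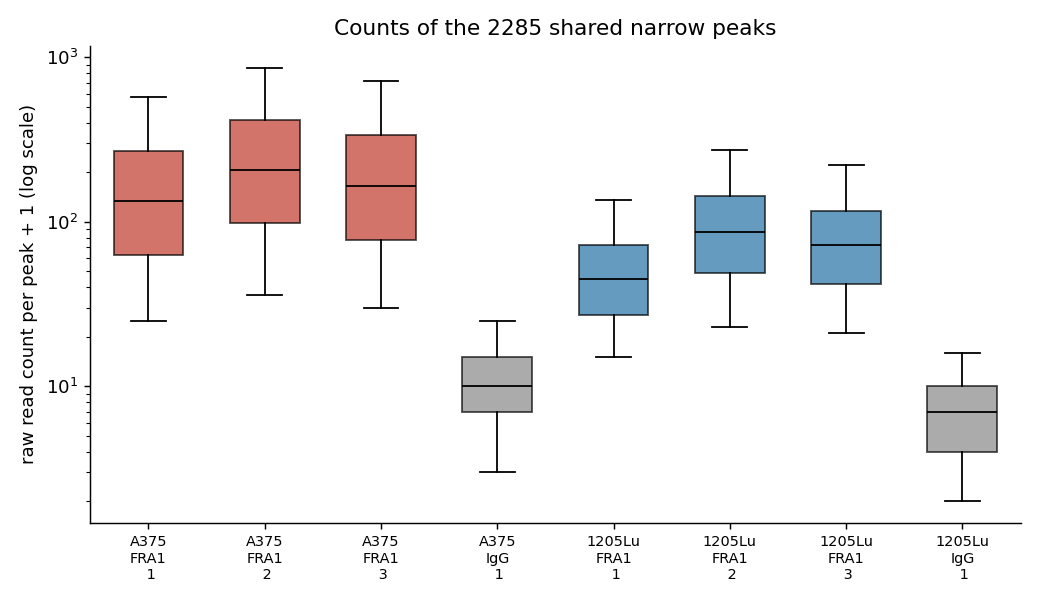
Raw read count plus 1 (log scale) of the 2285 shared narrow peaks in each of the 8 Cut&Run samples. Boxes give quartiles and medians and whiskers the 5th and 95th percentiles; FRA1 medians run from 133 to 206 in A375 and from 44 to 85 in 1205Lu, and the IgG medians are 9 and 6.

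The TRE was the most common of 9 short motifs searched at the centres of the shared narrow peaks. Within 100 bp of the centre, 874 peaks (38.2%, 95% Wilson interval 36.3 to 40.3) held at least 1 copy, compared with 3.65% (3.15 to 4.24) of windows of the same 201 bp placed 2000 bp to either side. Over all consensus peaks the share was 28.6% (28.3 to 29.0), and 4.95% of 35116 RefSeq promoters of 300 bases held the element. It was 34.7% in peaks enriched in A375 only, 19.5% in those enriched in 1205Lu only and 21.5% in those enriched in neither. Over the whole width, 80.6% of the shared narrow peaks held a TRE and 37.7% held 2 or more, and the 3132 copies came to 1.29 per kb. These shares were 68.4% and 20.7% in peaks enriched in A375 only and 57.7% and 15.8% in all consensus peaks. In the broad peaks enriched in both lines they were 92.3% and 69.6%. Wider peaks have more room for copies, and median widths in the same order were 1030, 822, 715 and 2405 bp. Per kb, the peaks enriched in A375 only held 1.08, those enriched in 1205Lu only 0.937, those in neither 0.766 and the broad peaks enriched in both lines 0.943. Both orientations occurred about equally, with 1594 TGACTCA and 1538 TGAGTCA on the forward strand. The nearest copy lay a median of 103.5 bp from the centre. Intervals cover counting error only, and the differences between groups of peaks were not tested.

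**Figure D2:**
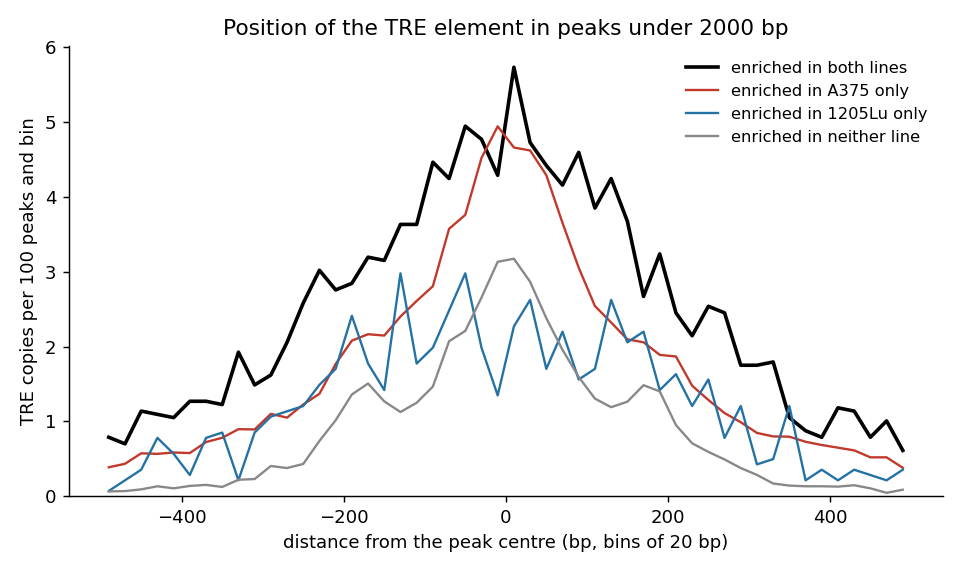
Copies of the TRE per 100 peaks in bins of 20 bp against the distance from the peak centre in bp, for 4 groups of peaks under 2000 bp, counting only bases inside a peak. In the bin from 0 to 20 bp the shared narrow peaks hold 5.73 copies per 100 peaks, those enriched in A375 only 4.66 and those enriched in neither line 3.17. From -20 to 0 bp the same groups hold 4.29, 4.94 and 3.13. There the peaks enriched in A375 only stand above the shared narrow peaks.

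The bases beside the element were uneven. Read so that the element is TGACTCA, the base before it was T in 7.85% of the 3132 copies (6.96 to 8.85), A in 35.7% and G in 31.7%. The base after it was A in 10.4% (9.42 to 11.6). In all consensus peaks T before the element stood at 9.20% and A after it at 10.0%.

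A few shared narrow peaks held far more copies than the rest. Copies numbered 0 in 443 peaks, 1 in 981, 2 in 605, 3 in 197 and 4 or more in 59, but 4 peaks held 10 or more and together 112 of the 3132 copies. These 4 were singled out after their values were seen. Their copies recur at fixed distances, as in a tandem repeat whose unit contains the element. In the peak on chromosome 16 (chr16:89994755-89996383) the reference has 44 copies over 1327 bp, most often 27 bp apart. In the intronic peak on chromosome 7 (chr7:157932341-157934222) it has 43 copies over 1560 bp, most often 34 bp apart. In the intronic peak 12358 bp from a start of the WNT ligand gene WNT9A (chr1:227934451-227935574) it has 15 copies over 617 bp, most often 32 bp apart. A window of each shows the repeated unit.
Repeat on chromosome 16, chr16:89995520-89995640: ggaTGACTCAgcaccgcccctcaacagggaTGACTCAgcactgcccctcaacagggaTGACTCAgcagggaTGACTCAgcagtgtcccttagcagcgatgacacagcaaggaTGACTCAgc
Repeat on chromosome 7, chr7:157933226-157933346: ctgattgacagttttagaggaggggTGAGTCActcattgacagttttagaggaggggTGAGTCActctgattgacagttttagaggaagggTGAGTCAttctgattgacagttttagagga
Repeat on chromosome 1, chr1:227934959-227935079: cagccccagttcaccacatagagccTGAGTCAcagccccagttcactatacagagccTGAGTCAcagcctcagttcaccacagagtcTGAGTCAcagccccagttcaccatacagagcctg

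The chromosome 16 repeat held 242, 323 and 316 reads against 8 in IgG in A375 and 95, 244 and 159 against 10 in 1205Lu. The chromosome 7 repeat held 176, 281 and 221 reads against 7 in IgG in A375 and 131, 364 and 278 against 6 in 1205Lu. In A375 both lay between the lower and upper quartiles of all shared narrow peaks (62 to 270, 97 to 413 and 76 to 335 reads in the 3 samples), despite more than 40 copies, and in 1205Lu both lay above the upper quartiles of 71, 142 and 116 reads. The chromosome 1 repeat held 433, 636 and 608 reads against 11 in IgG in A375 and 178, 454 and 398 against 12 in 1205Lu, above the upper quartile in all 6 samples. The number of repeat units in the genomes of these lines was not measured, and how reads that match several units were placed is not given in the sources used here. Of all 54563 peaks, 10 held 10 or more copies, of which 4 were shared narrow peaks and 5 were enriched in A375 only. Without the 4 repeats the density was 1.24 copies per kb, neighbouring copies lay a median of 262 bp apart, and 15.9% of 1182 neighbouring pairs lay within 50 bp. With them the median was 232 bp and the share 22.1% of 1290 pairs.

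With copies counted over the whole width, FRA1 counts were higher in peaks with more copies of the element. Per kb of peak, the median of the mean A375 FRA1 count was 135 without a TRE, 143 with 1 copy, 185 with 2, 280 with 3 and 354 with 4 or more. In 1205Lu the same medians were 62.0, 63.2, 71.6, 83.3 and 94.2. IgG medians per kb went from 8.85 without a TRE to 10.4 with 4 or more in A375 and from 5.35 to 5.87 in 1205Lu. Peaks with more copies were also wider, with a median of 937 bp without a TRE and 1417 bp with 4 or more, so the peaks were split by width. In the narrowest of 4 width classes (302 to 816 bp) the A375 medians were 91.0, 97.2 and 110 per kb for 0, 1 and 2 or more copies. In the widest (1276 to 1999 bp) they were 248, 241 and 283. In each of the 4 classes and in both lines, peaks with 2 or more copies had the highest median. With copies counted only within 100 bp of the centre, reads per peak did not rise steadily. For 0, 1 and 2 such copies, the medians were 137, 128 and 141 reads in A375 replicate 1. In 1205Lu replicate 1 they were 45, 41.5 and 40 reads. The 11 peaks with 3 or more had medians of 161 and 44 reads in these 2 samples. The counts chose the peaks, so these orders are a description.

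**Figure D3:**
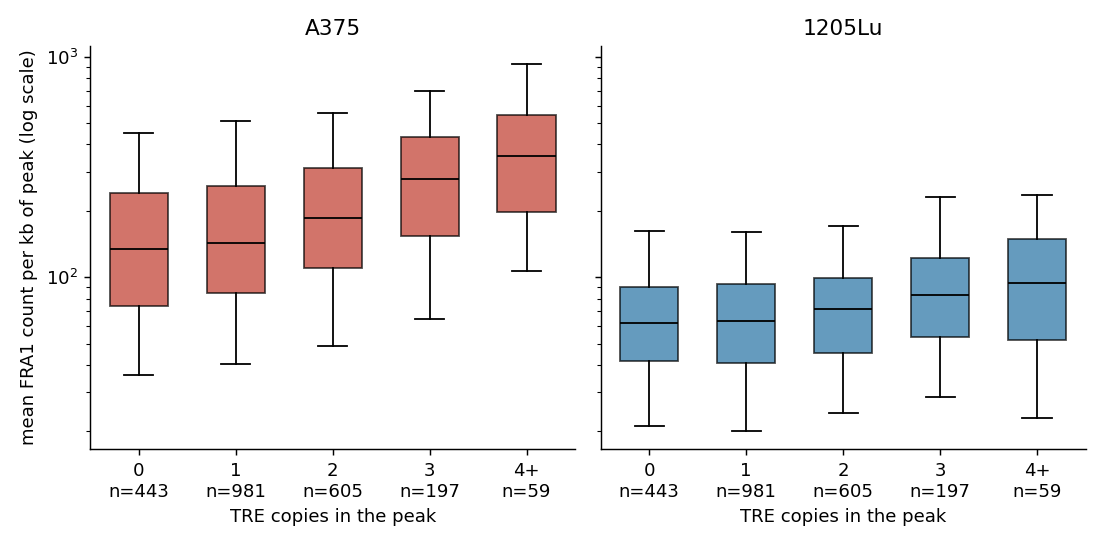
Mean FRA1 count per kb of peak (log scale) in A375 and 1205Lu for shared narrow peaks with 0, 1, 2, 3 and 4 or more TREs. Boxes give quartiles and medians and whiskers the 5th and 95th percentiles; medians run from 135 to 354 in A375 and from 62.0 to 94.2 in 1205Lu.

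Motifs of other factors were rarer at the centres. GGAATGT, the motif of TEAD factors, the DNA-binding partners of YAP, was found in 4.81% of the shared narrow peaks (4.01 to 5.77), in 3.13% of the windows to either side and in 5.61% of all consensus peaks. CCGGAA, the core of ETS factors, was found in 3.501%, 3.93% of all peaks and 1.58% of the side windows. TGTGGTT, the RUNX motif, was found in 5.86% of the peaks and 4.11% of the side windows. For the E-box CACGTG, which MITF and MYC proteins recognise, the shares were 2.93% and 2.56%, and for the CCAAT box GCCAAT 7.13% and 6.61%, with intervals that overlapped. The CRE was found in 0.394% of the peaks and 0.0656% of the side windows. TGCTGAGTC, an AP-1 core extended as MAF partners such as BACH and NRF2 recognise it, which overlaps the TRE, was found in 1.23% and 0.219%. The TEAD motif was found in 4.92% (3.67 to 6.56) of the 874 peaks with a TRE near the centre and in 4.75% (3.76 to 5.99) of the 1411 without. All motifs were searched on both strands, and a match is a run of letters, not a bound site.

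**Figure D4:**
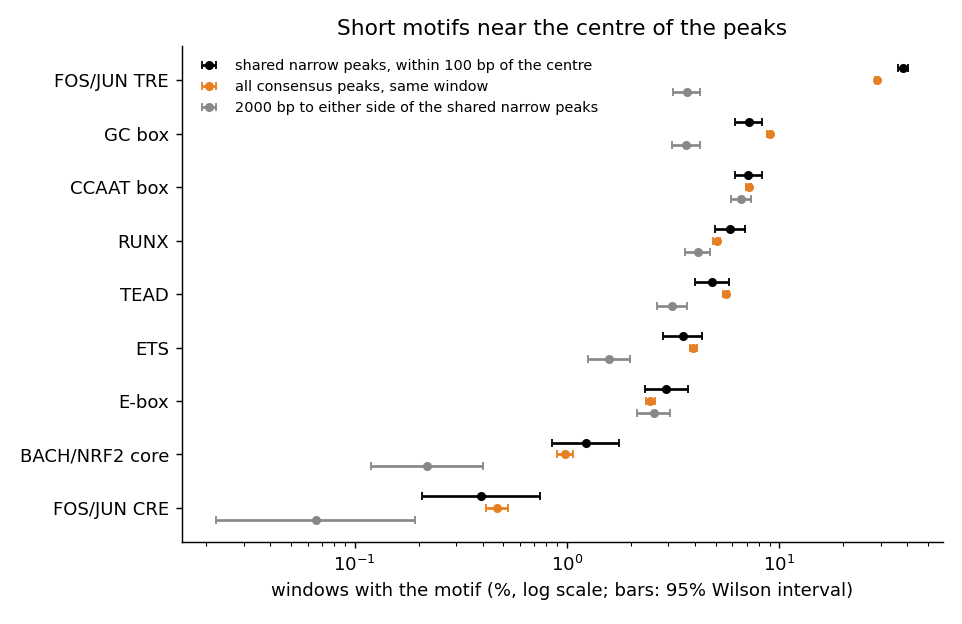
Share of 201 bp windows (percent, log scale) that hold each of 9 motifs at the centres of the shared narrow peaks, at the centres of all consensus peaks and 2000 bp to either side of the shared narrow peaks, with 95% Wilson intervals. The TRE stands at 38.2%, 28.6% and 3.65%, and no other motif exceeds 9.01% in any of the 3 sets.

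By the GENCODE v44 annotation, 723 of the shared narrow peaks (31.6%, 29.8 to 33.6) had a transcription start within 3 kb, 951 (41.6%) lay in introns, 573 (25.1%) between genes and 38 (1.66%) in exons. The promoter share was 32.3% over all consensus peaks, 29.1% in peaks enriched in A375 only and 23.7% in those enriched in 1205Lu only. The 316 peaks that overlapped a start differed in sequence from the 1562 without a start within 3 kb. A TRE lay near the centre of 27.8% of the former (23.2 to 33.0) and 39.8% of the latter (37.4 to 42.3). The GC box GGGCGG, bound by SP1, lay in 24.7% of the former and 3.97% of the latter, the ETS motif in 8.86% and 2.50%, and the TEAD motif in 2.22% and 5.70%. In the consensus peaks under 2000 bp over a start, 13.8% held a TRE near the centre and 39.3% a GC box. Along the genome, 2069 shared narrow peaks had no other within 12500 bp. The longest run held 4 peaks and 5 TREs over 17859 bp (chr22:30195427-30213285), on the 3′ side of LIF, a cytokine gene of the interleukin 6 family. A run of 3 with 4 TREs lay near SMAD3 (chr15:67041422-67050392), which encodes a mediator of TGFβ signaling.

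The direction in which the lines differed in FRA1 reads over these peaks rested on the scaling. With TMM scaling in edgeR, the median log2 difference of A375 over 1205Lu was -1.28 over the 2285 peaks and 0.27 over the 45588 peaks tested. At adjusted p below 0.05 with a log2 difference beyond 1 in size, 70 were higher in A375 (background of all peaks tested 30.7%) and 1350 in 1205Lu (background 23.0%). Scaled to the total in peaks the numbers were 90 and 1217, and without scaling 1395 and 105. The rule set a floor on the same counts, so nothing is read from this split.

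RNA-seq, which the rule did not use, was read for the 503 protein-coding genes with a start within 3 kb of a shared narrow peak. The fold change divides si-NT by si-FRA1, so a positive value means higher expression with FRA1. Called genes had an adjusted p below 0.05 (edgeR's quasi-likelihood test, Benjamini-Hochberg over all genes) and a log2 fold change beyond 1 in size. In A375, 26 of 444 genes tested were called (5.86%, 4.03 to 8.44), with a background of 5.29% of protein-coding genes tested. Of these, 19 were higher with si-NT (4.28%, 2.76 to 6.59, background 2.51%) and 7 lower (1.58%, background 2.78%). In 1205Lu, 11 of 455 were called (2.42%, 1.36 to 4.28, background 2.97%), 8 higher (1.76%, background 1.86%) and 3 lower (0.659%, background 1.11%). The higher calls of each line include FOSL1, the silenced gene. Over both directions together the shares called were near the background. The interval of the higher calls in A375 lay above its background, a difference that was not tested. The median log2 fold change was 0.04 in A375 and 0.05 in 1205Lu. In bulk RNA, fewer expressing cells and less RNA per cell cannot be told apart.

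Changes below the fold limit were common in these genes, as in all genes. By the adjusted p alone, 268 of 444 genes passed in A375 (60.4%, 55.7 to 64.8, background 57.7%) and 252 of 455 in 1205Lu (55.4%, 50.8 to 59.9, background 47.0%). In 1205Lu, 60.5% (55.0 to 65.7) of the 319 genes with a TRE in the promoter peak passed and 43.4% (35.3 to 51.8) of the 136 without. In A375 the same shares were 61.7% (56.2 to 67.0) of 311 genes and 57.1% (48.6 to 65.2) of 133. Genes near a consensus peak but no shared narrow peak passed in 61.7% in A375 and 51.8% in 1205Lu. With 1, 2 and 3 or more shared narrow peaks within 50 kb of a start, 60.0%, 63.3% and 75.9% of genes passed in A375 (1716, 275 and 58 genes) and 50.5%, 58.0% and 73.8% in 1205Lu (1728, 281 and 61 genes). Their median log2 fold changes were 0.02, 0.08 and 0.18 in A375 and 0.02, 0.03 and 0.08 in 1205Lu. Past the fold limit there was no such order, at 5.94%, 4.73% and 6.90% in A375 and 2.84%, 1.78% and 1.64% in 1205Lu. Expression level, which sets the power to pass, was not matched, and these differences were not tested.

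Called in both lines were 6 of the 435 genes tested in both (1.38%, background 0.632%), all higher with si-NT. They were MPP4, PPP1R11, KIAA0040, SMCO4, GLDC and FOSL1, the silenced gene, whose call follows from the treatment. Windows of the shared narrow peaks of 5 of them, and of that of AXL, are printed as above to show which contain the element.
FOSL1 promoter, chr11:65903206-65903326: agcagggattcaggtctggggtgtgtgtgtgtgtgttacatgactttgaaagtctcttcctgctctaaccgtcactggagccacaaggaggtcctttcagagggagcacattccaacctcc
MPP4 promoter, chr2:201696276-201696396: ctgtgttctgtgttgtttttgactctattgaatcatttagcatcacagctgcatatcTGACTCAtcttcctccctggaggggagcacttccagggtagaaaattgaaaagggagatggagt
PPP1R11 start, chr6:30067126-30067246: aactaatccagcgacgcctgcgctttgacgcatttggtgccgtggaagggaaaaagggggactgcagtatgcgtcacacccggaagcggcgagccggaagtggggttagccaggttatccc
KIAA0040 promoter, chr1:175169391-175169511: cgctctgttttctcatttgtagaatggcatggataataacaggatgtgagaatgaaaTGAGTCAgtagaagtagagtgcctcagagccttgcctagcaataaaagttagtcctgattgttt
SMCO4 promoter, chr11:93542076-93542196: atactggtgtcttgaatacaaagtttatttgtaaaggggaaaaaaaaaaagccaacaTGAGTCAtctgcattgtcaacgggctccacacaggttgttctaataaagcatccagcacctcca
AXL promoter, chr19:41225845-41225965: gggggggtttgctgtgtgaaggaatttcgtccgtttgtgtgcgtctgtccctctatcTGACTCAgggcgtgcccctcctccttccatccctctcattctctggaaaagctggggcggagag

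FOSL1 (ENSG00000175592.8, minus strand, chr11:65892049-65900573) is the silenced gene and checks the treatment. It stood at 412, 423 and 407 CPM under si-NT and 25.6, 25.6 and 25.9 CPM under si-FRA1 in A375. In 1205Lu it stood at 492, 483 and 477 CPM and 69.2, 70.8 and 65.0 CPM. The groups were far apart, with log2 fold changes of 4.01 (SE 0.03) and 2.84 (SE 0.03). Its shared narrow peak (chr11:65902643-65903890), 2070 bp from the start, contained no TRE and held 128, 172 and 160 reads against 9 in IgG in A375 and 47, 90 and 68 against 6 in 1205Lu.

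MPP4 (ENSG00000082126.18, minus strand, chr2:201644870-201698694), of the membrane-associated guanylate kinase family, stood at 5.65, 5.33 and 4.59 CPM under si-NT and 1.28, 1.92 and 1.54 CPM under si-FRA1 in A375. Its 1205Lu values were 3.42, 4.22 and 4.43 CPM and 1.12, 1.38 and 1.15 CPM. The groups did not overlap in either line, and the log2 fold changes were 1.73 (SE 0.20) and 1.73 (SE 0.22) (edgeR adjusted p = 8.9e-08 and 1.9e-06). Its peak (chr2:201695977-201696834), 1162 bp from a start, contained 2 TREs and held 80, 123 and 109 reads against 5 in IgG in A375 and 51, 150 and 117 against 5 in 1205Lu.

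PPP1R11 (ENSG00000204619.8, plus strand, chr6:30066709-30070333), an inhibitory subunit of protein phosphatase 1, stood at 68.0, 69.8 and 70.4 CPM under si-NT and 25.8, 27.0 and 28.4 CPM under si-FRA1 in A375. In 1205Lu it stood at 40.9, 46.2 and 44.5 CPM and 19.0, 19.97 and 18.8 CPM. The groups were separate in both lines, with log2 fold changes of 1.37 (SE 0.05) and 1.2005 (SE 0.06). The peak over its start (chr6:30066689-30067683) contained no TRE and held 189, 246 and 192 reads against 10 in IgG in A375 and 35, 56 and 69 against 4 in 1205Lu.

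KIAA0040 (ENSG00000235750.10, minus strand, chr1:175156986-175192999) stood at 10.4, 14.0 and 12.7 CPM under si-NT and 5.14, 6.00 and 5.46 CPM under si-FRA1 in A375. Its 1205Lu values were 21.7, 19.6 and 20.5 CPM and 3.60, 2.99 and 3.20 CPM. The groups were separate in both lines, with log2 fold changes of 1.17 (SE 0.12) and 2.68 (SE 0.11), and the responses differed between the lines (interaction -1.49, SE 0.18, edgeR adjusted p = 2.7e-07). Its peak (chr1:175168959-175169971), 2218 bp from an internal start, contained 1 TRE, 14 bp from the centre, and held 74, 160 and 113 reads against 11 in IgG in A375 and 42, 82 and 57 against 3 in 1205Lu.

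SMCO4 and GLDC rested on few counts. SMCO4 ranged over 1.04 to 1.99 CPM with si-NT and 0.583 to 0.917 CPM under si-FRA1 in A375 (log2 fold change 1.17, SE 0.36, edgeR adjusted p = 0.0083). In 1205Lu its groups overlapped, at 0.667 to 1.52 CPM and 0.194 to 0.802 CPM (1.26, SE 0.48, edgeR adjusted p = 0.0418). GLDC, a subunit of the glycine cleavage system, ranged over 0.830 to 1.16 CPM and 0.167 to 0.826 CPM in A375 (1.09, SE 0.46, edgeR adjusted p = 0.0496) and 0.667 to 0.986 CPM and 0.0891 to 0.389 CPM in 1205Lu (2.06, SE 0.58, edgeR adjusted p = 0.0072). The A375 call of GLDC was lost in 9 alternative fits, that of SMCO4 in 1205Lu in 6 and that of SMCO4 in A375 in 1. The peak over an internal start of GLDC (chr9:6566345-6567794) had 3 TREs and 894, 1461 and 1086 reads against 37 in IgG in A375 and 129, 259 and 205 against 5 in 1205Lu. The SMCO4 peak (chr11:93541673-93542612) was weak, with 2 TREs and 90, 127 and 87 reads against 6 in IgG in A375 and 20, 27 and 18 against 3 in 1205Lu.

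In A375 the largest positive changes after FOSL1, among called genes with at least 100 counts on average and groups that did not overlap, were those of AXL, PPP1R11, TOMM40 and EVI5L. AXL (ENSG00000167601.12, plus strand, chr19:41219223-41261766), a receptor tyrosine kinase, stood at 710, 712 and 720 CPM under si-NT and 194.3, 188 and 191 CPM under si-FRA1 in A375. The 1205Lu values were 495, 491 and 507 CPM and 267, 260 and 278 CPM. The groups were separate in both lines, with log2 fold changes of 1.91 (SE 0.02) and 0.91 (SE 0.02), the latter under the fold limit. Its peak (chr19:41225180-41226590), 165 bp from an internal AXL start, contained 3 TREs and held 592, 837 and 687 reads against 18 in IgG in A375 and 155, 316 and 242 against 6 in 1205Lu.

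TOMM40, the import channel of the outer mitochondrial membrane, had log2 fold changes of 1.33 (SE 0.04) in A375 and 0.95 (SE 0.05) in 1205Lu. EVI5L, a regulator of RAB proteins, had 1.28 (SE 0.11) and 0.88 (SE 0.08). The peaks at both genes contained no TRE. The peak over the TOMM40 start (chr19:44890182-44891663) held 719, 967 and 887 reads against 37 in IgG in A375 and 102, 182 and 151 against 10 in 1205Lu. Negative in A375 were DNAJB2, a co-chaperone of HSP70, at -1.19 (SE 0.11), and the uridine phosphorylase UPP1, at -1.04 (SE 0.17). Both were low with si-NT in A375, at 5.45 to 6.83 CPM and 2.13 to 3.06 CPM, and stood at 64.9 to 65.6 CPM and 182 to 184 CPM in 1205Lu. The call of UPP1 was lost without A375 si-NT replicate 2 or si-FRA1 replicate 2, with values from -0.94 to -0.88. The DNAJB2 peak contained no TRE and the UPP1 peak 2.

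Under the same limits on counts and groups, the largest positive changes in 1205Lu after FOSL1 and KIAA0040 were those of ATOX1, PPP1R11 and RIN1. ATOX1, a copper chaperone, stood at 32.9, 33.5 and 34.8 CPM under si-NT and 10.99, 12.2 and 13.7 CPM under si-FRA1 in 1205Lu. Its log2 fold change was 1.47 (SE 0.08), against 0.36 (SE 0.09) in A375. RIN1, an effector of RAS, had 1.18 (SE 0.08) in 1205Lu and 0.91 (SE 0.08) in A375. The ATOX1 peak, at an internal start, contained 1 TRE and the RIN1 peak 2.

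Both genes named as negative in 1205Lu encode transcription factors. ATF3, a stress-induced partner of JUN, stood at 6.28, 5.11 and 5.87 CPM under si-NT and 12.2, 15.8 and 12.4 CPM under si-FRA1 in 1205Lu, a log2 fold change of -1.21 (SE 0.13), against -0.28 (SE 0.10) in A375. NFATC2, which responds to calcium and can bind DNA together with AP-1, stood at 123, 120 and 120 CPM and 259, 248 and 255 CPM in 1205Lu, a log2 fold change of -1.05 (SE 0.03). In A375 it stood at 7.45 to 8.93 CPM and 6.24 to 7.502 CPM. Their groups in 1205Lu were separate, as the choice of these genes required. Each promoter peak contained 1 TRE and lay near the limits: that of ATF3 (chr1:212566740-212567680) held 140, 222 and 195 reads against 12 in IgG in A375 and 23, 22 and 22 against 4 in 1205Lu, and that of NFATC2 (chr20:51563517-51564213) held 48, 89 and 79 reads against 9 in IgG in A375 and 28, 40 and 40 against 6 in 1205Lu. NFATC2 had 4 shared narrow peaks within 50 kb.

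**Figure D5:**
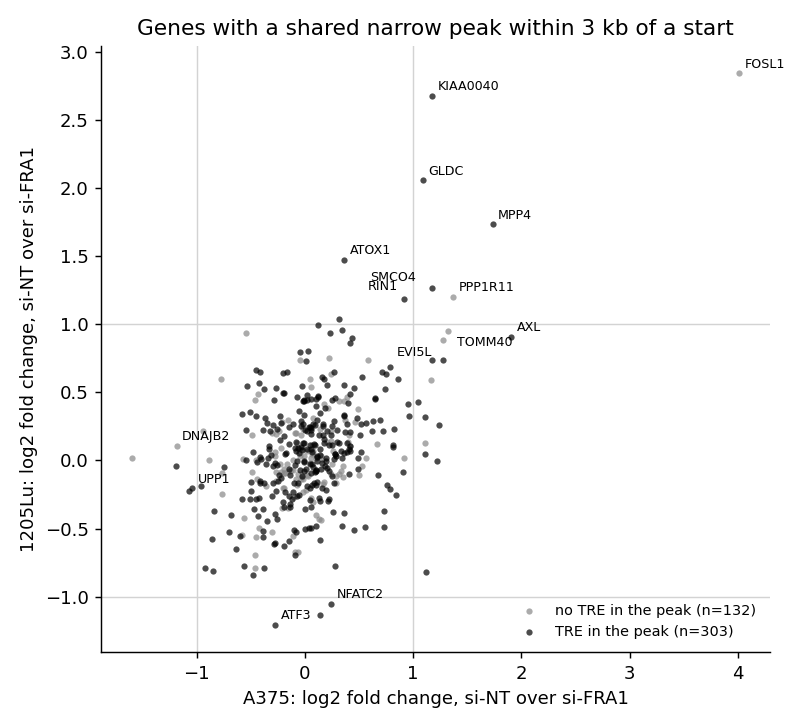
Log2 fold change, si-NT over si-FRA1, in A375 (horizontal) and 1205Lu (vertical) of the 435 genes tested in both lines with a shared narrow peak within 3 kb of a start, marked by whether the peak contains a TRE (303 genes) or not (132). Lines mark the fold limit of 1; the 6 genes called in both lines lie in the upper right, with FOSL1 at 4.01 and 2.84.

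The response differed between the lines for 28 of 466 genes with a promoter peak (6.01%, 4.19 to 8.55, background 5.23%), by edgeR's test of the interaction over all 12 samples with the same limits. The value was larger in A375 for 13 and in 1205Lu for 15.

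Genes of 7 lists were read next, for which the background is the same for each list: in A375, calls in favour of si-NT made up 2.51% of protein-coding genes tested and those in favour of si-FRA1 2.78%, and in 1205Lu 1.86% and 1.11%. The lists had 9 to 26 genes tested. Of the 12 AP-1 subunits, which pair with each other as dimers, FOSL1 and ATF3 had a shared narrow peak at the promoter and FOSB, BATF3, MAFG and MAFK within 50 kb. Over the whole list, 2 were called higher with si-NT and none lower in A375, and 1 higher and 2 lower in 1205Lu. Of the 6 with a peak, FOSL1 and BATF3 (1.28, SE 0.30) were called in A375 and FOSL1 and ATF3 in 1205Lu. The median log2 fold change of the 6 was 0.34 in A375 and -0.35 in 1205Lu, that of all 12 was 0.33 and -0.50, and that of all protein-coding genes tested was -0.01 and 0.00. FOSB, a partner of JUN, had -0.14 (SE 0.15) in A375 and -0.76 (SE 0.12) in 1205Lu. The small MAF protein MAFK had 0.51 (SE 0.07) and -0.35 (SE 0.05). Of 16 ERK feedback and output genes, none had a promoter peak, 3 had one within 50 kb (SPRED2, IER3 and PHLDA1) and none of the 16 was called in either line.

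Of 19 YAP and TEAD targets, 7 had a shared narrow peak within 50 kb. Over the list, 2 were called higher and 1 lower with si-NT in A375, and none of 18 in 1205Lu. Of the 7, AXL was called, in A375. CCN1, a matricellular protein, stood at 437, 450 and 428 CPM under si-NT and 230, 220 and 239 CPM under si-FRA1 in A375, a log2 fold change of 0.94 (SE 0.03). In 1205Lu it stood at 58.2, 53.6 and 55.3 CPM and 102, 96.8 and 99.05 CPM, a log2 fold change of -0.81 (SE 0.04). The groups were separate in both lines, in opposite order. Its peak, 24765 bp from a start (chr1:85606228-85607994), contained 1 TRE and held 393, 524 and 491 reads against 13 in IgG in A375 and 45, 86 and 71 against 5 in 1205Lu. NT5E, an ectonucleotidase, had -0.43 (SE 0.03) in A375 and 0.67 (SE 0.02) in 1205Lu.

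Of 26 adhesion, matrix and actin genes, ITGB1, FLNA and PXN had a shared narrow peak at the promoter and 10 had one within 50 kb. The promoter peaks of FLNA and PXN lay at internal starts. Over the list, 2 were called higher and 2 lower with si-NT in A375, and 1 higher and 1 lower of 25 in 1205Lu. ITGB1, the β subunit of many integrins, stood at 543, 532 and 536 CPM under si-NT and 403, 409 and 418 CPM under si-FRA1 in A375. The 1205Lu values were 1003, 1011 and 995 CPM and 759, 754 and 758 CPM. These were small differences between separate groups, of 0.40 (SE 0.02) and 0.42 (SE 0.02). FLNA, an actin cross-linker, had 0.25 (SE 0.02) and 0.25 (SE 0.02), and the focal adhesion adaptor PXN 0.62 (SE 0.02) and 0.22 (SE 0.02). ITGA5, which pairs with ITGB1 in the fibronectin receptor, had -0.58 (SE 0.03) and 0.54 (SE 0.04). The peak in ACTN4, an actin cross-linker (chr19:38683136-38685128), with 4 TREs, held 1521, 2257 and 1866 reads against 37 in IgG in A375 and 270, 577 and 366 against 14 in 1205Lu.

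The other lists held few such genes. Of 16 G1 cell cycle genes, E2F3 had a shared narrow peak at its start and CDK6 within 50 kb, and over the list 1 was called in each direction of 15 in A375 and 1 higher of 14 in 1205Lu. CDK6, a kinase that phosphorylates RB1, was called in A375 (1.03, SE 0.02) and had 0.24 (SE 0.02) in 1205Lu. Its nearest peak, in an intron 14623 bp from a start (chr7:92632900-92634113), contained 1 TRE and held 237, 359 and 302 reads against 15 in IgG in A375 and 82, 182 and 152 against 11 in 1205Lu. Of 16 stress and inflammatory genes, TXNRD1 had a promoter peak, at an internal start, and 5 had one within 50 kb. Over the list, 4 were called lower in A375 and 1 of 14 in 1205Lu. Of the 5, TNFAIP3, an inhibitor of NF-κB signaling, was called lower in A375 (-1.04, SE 0.06). LIF, near the run of 4 peaks, had 0.03 (SE 0.09) in A375 and 0.41 (SE 0.03) in 1205Lu. Of 14 melanocyte lineage genes, PMEL and PAX3 had a promoter peak, that of PAX3 at an internal start. Of 9 tested, 2 were called lower in A375 and 1 in 1205Lu. PMEL was called in A375 from at most 1.38 CPM (-1.19, SE 0.39), a call lost when any of 4 samples was left out. PAX3, a lineage transcription factor, had -0.06 (SE 0.08) in A375 and -0.67 (SE 0.05) in 1205Lu.

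Without silencing, genes with a promoter peak were more often higher in 1205Lu than in A375. At si-NT, 181 of 454 were called different (39.9%, background 38.6%), 51 higher in A375 (11.2%, 8.65 to 14.5, background 18.4%) and 130 higher in 1205Lu (28.6%, 24.7 to 33.0, background 20.2%). The median log2 ratio of A375 over 1205Lu was -0.35, against 0.02 over all protein-coding genes tested. With 1, 2 and 3 or more shared narrow peaks within 50 kb it was -0.13, -0.38 and -0.92, and of the 60 genes with 3 or more, 2 were higher in A375 and 29 in 1205Lu. Genes near a peak enriched in A375 only had a median of 0.12, and those near a peak enriched in 1205Lu only -0.70, both without a shared narrow peak within 3 kb. The 454 genes were also split by the TMM-scaled log2 difference in FRA1 reads, A375 over 1205Lu, at the promoter peak. Their median RNA ratio was 0.09 over 0 (53 genes), -0.30 between -2 and 0 (310 genes) and -1.37 at -2 or less (91 genes). The FRA1 differences came from the counts that the rule used, and their direction rested on the scaling. The cut points therefore hold for TMM scaling only, and a link between FRA1 binding and expression was not tested by this split. For most peaks a 1205Lu sample was nearest to the limit of the rule, and its part in the RNA difference was not tested.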

How the data were processed

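The FRA1 Cut&Run table holds raw counts of reads per consensus peak as deposited. Per the methods and the submitters' processing notes, the authors aligned reads to GRCh38 with Bowtie2 2.4.1, called peaks with MACS2 at q of 0.01 and merged them to consensus peaks; whether peaks were called per sample is not given in the sources used here. The RNA-seq table holds expected counts per gene as deposited, which the authors made with STAR 2.7.7a and RSEM 1.3.0 on Gencode v30, from strand-specific libraries. They were used as deposited in edgeR and rounded to whole numbers for DESeq2 only.

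Peaks were annotated with GENCODE v44 of the same build, and promoter sequences came from RefSeq. A promoter peak had any transcript start within 3 kb, and genes were protein-coding. Tests used edgeR 4.0.16 (filterByExpr, TMM, quasi-likelihood, Benjamini-Hochberg) in R 4.3.3, with DESeq2 1.42.0, other scalings, limits and samples left out as alternatives. CPM values used TMM library sizes over all 12 RNA-seq samples. On simulated counts the fit recovered 196 of 199 changed genes in A375 (16804 genes tested), 197 of 200 in 1205Lu (17140), 166 of 193 for the interaction (18361), 198 of 198 at baseline (17824) and 147 of 187 changed peaks in Cut&Run (43684 peaks). Shares carry 95% Wilson intervals, which cover counting error only. Named were the 8 peaks with the largest smallest ratio, peaks beside the limits, genes called in both lines, up to 5 called genes per line and direction with mean counts of at least 100 and groups that did not overlap, and genes of 7 lists. Members, lists and tests were chosen with earlier results of these data known. The result of 1 list gene and 1 sequence window are not reported here.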

Additional observations from a re-analysis of the deposited data

Results flagged for a closer look

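For 9 named genes the response to silencing, as the log2 fold change of si-NT over si-FRA1, differed between A375 and 1205Lu by edgeR's interaction test with a difference over 1. CCN1 differed by 1.76, NT5E by -1.09 and ITGA5 by -1.11 (A375 minus 1205Lu), each with opposite signs in the lines. FOSL1 itself differed by 1.19, so the silenced gene fell further in A375. AXL differed by 1.01, NFATC2 by 1.32, KIAA0040 by -1.49, DNAJB2 by -1.28 and ATOX1 by -1.10. The part of the unequal silencing of FOSL1 in the other differences was not tested.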

How the results depend on the processing

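The number of peaks depended on the limits: 5755 at 2 times IgG, 588 at 8 times and 1063 under 1000 bp. It was 107 with all counts, IgG included, scaled to the same total. With 1 FRA1 sample left out it was 2290 to 3871, the highest without 1205Lu replicate 1. The TRE share was 35.4% at 2 times IgG, 43.3% under 1000 bp, 21.0% within 50 bp of the centre and 80.6% anywhere in the peak (37.5% to 38.3% with a sample left out). The promoter share was 36.3%, 29.6% and, with starts within 1 kb, 19.7% (31.5% to 31.9%). Genes called numbered 268 by adjusted p alone and 17 within 1 kb in A375 (23 to 31 with a sample left out), 252 and 7 in 1205Lu (10 to 14), and 220 and 17 for the interaction (26 to 32). With a sample left out, baseline calls ranged from 181 to 188 and Cut&Run calls from 1328 to 1632. The cause was not tested. With the replicate number as a block, 29 genes were called in A375, 10 in 1205Lu, 30 for the interaction, 186 at baseline and 1403 peaks in Cut&Run; same-numbered RNA-seq samples did not deviate together (r from -0.109 to 0.097), and this was not examined for Cut&Run. The Cut&Run difference between the lines turned without scaling, from 70 peaks higher in A375 and 1350 in 1205Lu to 1395 and 105. Of the named genes' values, 404 kept their call and 26 lost it, in ATOX1 and AXL (interaction), GLDC, PMEL and UPP1 (A375) and SMCO4. The low 1205Lu counts in peaks, with a median of 44 reads in replicate 1, and 1 IgG sample per line limit which peaks could pass.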
